A study of Mus musculus with 12 samples.

Results

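Expression in kidney was followed for 10 genes of sodium uptake through the epithelial sodium channel (ENaC) and of the response to corticosteroids: Scnn1a, Scnn1b, Scnn1g, Nr3c2, Nr3c1, Hsd11b2, Nedd4l, Sgk1, Tsc22d3 and Fkbp5. They were taken by gene symbol as 10 of the 24421 gene symbols in the table, and where a symbol had several transcripts the transcript with the highest total count over all libraries stood for the gene. The RNA-seq libraries came from kidneys of male mice at 6 weeks old (C57BL/6 in the labels and C57BL/6J in the study's methods), 3 libraries in each of 4 groups. WT baseline and Tet2-/- baseline mice were labelled as healthy controls, and WT IR and Tet2-/- IR mice had renal ischemia-reperfusion (IR). IR was 60 min of clamping of the right renal pedicle, followed by removal of the left kidney and 24 h of reperfusion. Mice labelled Tet2-/- were bred from Tet2+/- pairs, and Tet2 encodes an enzyme of DNA demethylation. Levels of Tet2 RNA, given below, did not follow these labels at baseline. Libraries of sham-operated mice were not analysed here, so every IR effect below also holds the surgery and the loss of the other kidney. By the study's account the libraries came from separate mice, and the numbers of replicates in the labels carry no stated pairing.

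ENaC carries sodium across the luminal membrane of principal cells in the connecting tubule and collecting duct, and its alpha, beta and gamma subunits are encoded by Scnn1a, Scnn1b and Scnn1g. Aldosterone acts on these cells through the mineralocorticoid receptor Nr3c2, while the glucocorticoid receptor Nr3c1 is found in nearly all cells, and the enzyme Hsd11b2 inactivates glucocorticoids so that they do not occupy Nr3c2 in these cells. Among the genes that the hormone-bound receptors switch on, Sgk1 encodes a kinase that keeps the ubiquitin ligase Nedd4l away from ENaC, Tsc22d3 encodes the leucine zipper protein GILZ, and Fkbp5 encodes a chaperone that lowers the affinity of Nr3c1 for its hormone.

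Total counts per library, over 1 transcript per gene, ran from 51007366 to 107969888, and each of the 10 genes passed the filter on low counts in each comparison. Levels below are FPKM (fragments per kilobase of transcript, scaled to the total of the library), so that levels of different genes can be compared. Differences are log2 fold changes from edgeR on the counts after TMM scaling, which sets libraries level by the bulk of their genes. The TMM factors were 1.01 to 1.17 in Tet2-/- IR libraries and 0.93 to 0.97 in Tet2-/- baseline libraries, and a log2 fold change between these groups is therefore lower than the ratio of mean FPKM. Tet2 itself did not follow the labels at baseline. Its FPKM was 9.15, 6.25 and 7.33 in WT baseline libraries and 9.24, 16.6 and 10.3 in baseline libraries labelled Tet2-/- (log2 fold change 0.76 ± 0.24 (SE), adjusted p = 0.321, edgeR's quasi-likelihood test). After IR it was 9.34, 3.97 and 3.86 in WT libraries and 2.64, 3.20 and 1.76 in libraries labelled Tet2-/- (−1.28 ± 0.36, adjusted p = 0.069). Group names are those of the labels throughout. Whether the labels hold at baseline was not tested, and if WT and Tet2-/- were exchanged there, each genotype difference at baseline would have the opposite sign and the IR effects and interactions would pair other libraries. Summed over 8 principal cell markers, the level was 545 to 1010 FPKM in WT baseline, 328 to 640 in Tet2-/- baseline, 475 to 728 in WT IR and 325 to 521 in Tet2-/- IR libraries. Over 7 proximal tubule markers it was 2380 to 2530, 2180 to 2820, 1460 to 1980 and 551 to 783 in the same order. Over the injury markers Havcr1 and Lcn2 it was 11.9 to 17.9, 3.94 to 24.2, 288 to 1030 and 2340 to 2720. Leukocyte markers (11 genes) summed to 22.2 to 29.4, 23.1 to 36.2, 29.8 to 42.1 and 109 to 187 FPKM. Adipocyte markers (8 genes) summed to 62.4 to 277, 41.8 to 75.7, 18.3 to 77.3 and 84.2 to 605, with the highest value in Tet2-/- IR replicate 3. Of 7 adrenal markers, Cyp11b1, Cyp11b2, Cyp11a1 and Mc2r were under 0.1 FPKM in every library. All 7 summed to 0.954 to 1.09, 0.832 to 1.01, 0.862 to 1.26 and 1.02 to 2.05 FPKM in the same order of groups. These are whole-kidney samples, in which fewer cells of a type and less RNA per cell cannot be told apart.

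Tsc22d3 and Hsd11b2 were the members called, both lower after IR in libraries labelled Tet2-/-, to 0.372 and 0.487 of the baseline level. In the other comparisons none of the 10 genes was called by edgeR's test of the groups compared with no block, where a call is an adjusted p under 0.05 with a log2 fold change beyond 1 in either direction. In WT kidneys 0 of 10 genes were called after IR, with 2.35% of all genes tested called in that comparison. Of the 10, 2 genes had an unadjusted p under 0.05 there. With the replicate number as a block, 2 of 10 were called after IR in WT, Sgk1 and Tsc22d3 (adjusted p = 0.0063 and 0.00689, edgeR), both lower. DESeq2 and the fit of all 12 libraries called the same 2 genes. With any single library left out, or with the adipocyte marker level as a covariate, 0 of 10 were called there. In libraries labelled Tet2-/-, 2 of 10 were called after IR, a share near the 24.3% of all genes tested. Between genotypes 0 of 10 were called at baseline, with 0.0124% of all genes called and 3 of 10 genes at an unadjusted p under 0.05. After IR 0 of 10 were called between genotypes, with 6.15% of all genes called and 2 of 10 genes at an unadjusted p under 0.05. The genotype by IR interaction, the test of whether the IR effect differed between genotypes, was called at an adjusted p under 0.05 with no limit on the fold change, for 0 of 10 genes and 9.18% of all genes. Of the 10, 3 had an unadjusted p under 0.05. The median log2 fold change of the 10 genes was −0.13 after IR in WT, −0.30 after IR in Tet2-/-, −0.13 between genotypes at baseline and −0.25 between genotypes after IR, beside medians over all genes of −0.03, 0.04, 0.00 and 0.04. For the interaction the medians were 0.02 over the 10 genes and 0.10 over all genes. The 4 comparisons share libraries with each other and are not independent.

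**Figure D1:**
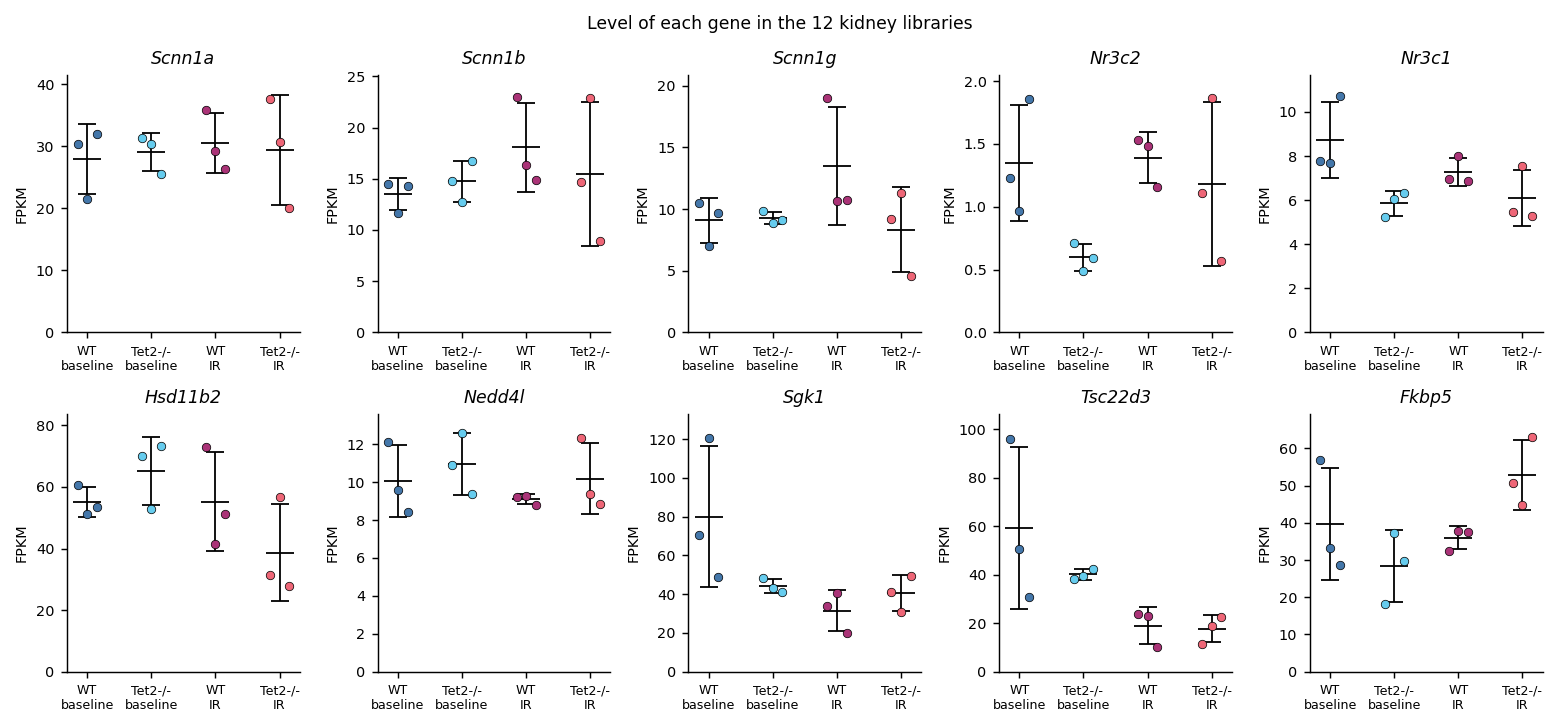
FPKM of the 10 genes (vertical axes, each from 0) in the 4 groups of 3 kidney libraries, with points for libraries and bars for the mean ± SD. Tsc22d3 lay below every baseline library of the same genotype in all IR libraries, from 10.1 to 23.7 FPKM in WT and from 11.6 to 22.6 in Tet2-/-.

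**Figure D2:**
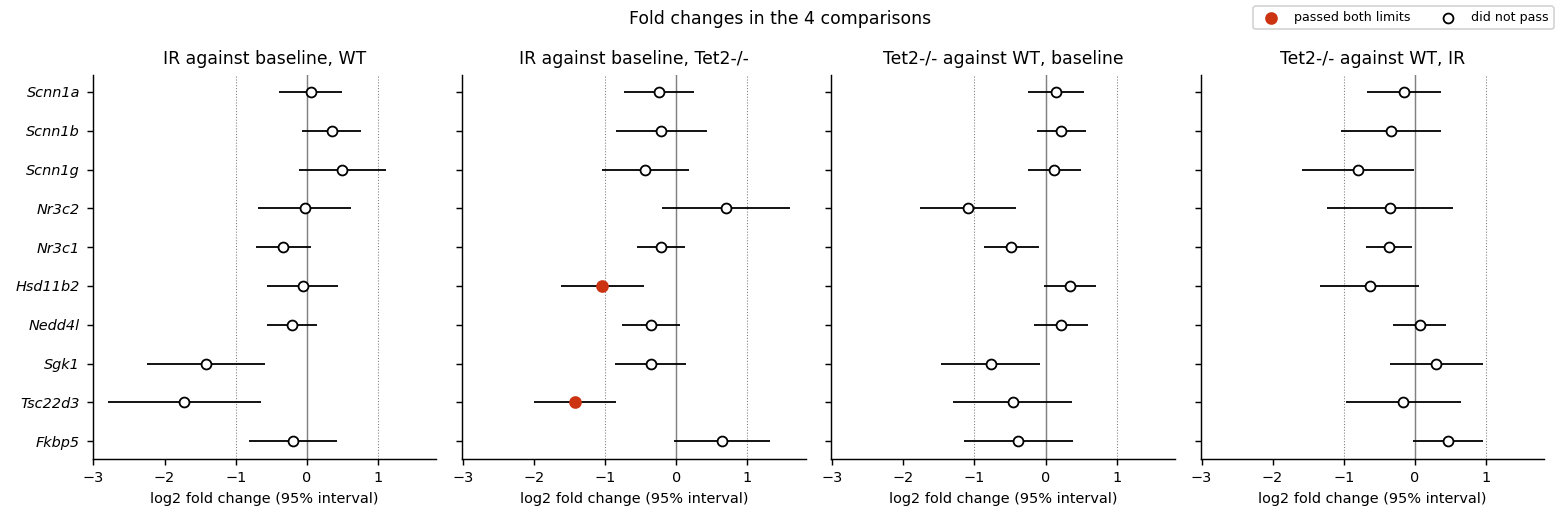
Log2 fold change of each gene (horizontal axis, points, with 95% intervals as lines) in the 4 comparisons of 3 against 3 libraries. The filled points are Hsd11b2 (−1.04) and Tsc22d3 (−1.43) after IR in libraries labelled Tet2-/-, the 2 values past both limits, and the dotted lines mark a log2 fold change of 1 in either direction.

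The levels of the 10 genes spanned a wide range. In WT baseline kidneys the mean FPKM was highest for Sgk1 (80.1 ± 36.6, SD, n = 3), followed by Tsc22d3 (59.1 ± 33.4), Hsd11b2 (55.0 ± 4.81), Fkbp5 (39.6 ± 15.1) and Scnn1a (28.0 ± 5.70), and neighbours in this order overlapped in their libraries. Scnn1b (13.5 ± 1.58) lay below Scnn1a in each library, and Scnn1b, Nedd4l (10.1 ± 1.88), Scnn1g (9.08 ± 1.81) and Nr3c1 (8.74 ± 1.73) overlapped from neighbour to neighbour. Nr3c2 was the lowest of the 10 in each group, at 1.35 ± 0.460 in WT baseline, 0.598 ± 0.109 in Tet2-/- baseline, 1.39 ± 0.204 in WT IR and 1.18 ± 0.653 in Tet2-/- IR libraries. The top of the order was Hsd11b2 in Tet2-/- baseline (65.3 ± 11.03) and WT IR (55.2 ± 16.1), without overlap with the next gene, and Fkbp5 in Tet2-/- IR (52.9 ± 9.39), which overlapped with Sgk1.

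None of the 3 ENaC subunit genes was called in any comparison. Scnn1a (NM_011324, mm9 chr6:125271358-125294960, plus strand), the pore subunit without which the channel does not reach the membrane, was at 30.4, 21.5 and 32.03 FPKM in WT baseline and 31.3, 30.4 and 25.5 in Tet2-/- baseline libraries. After IR it was at 35.8, 29.2 and 26.3 in WT libraries and 37.6, 30.8 and 20.0 in Tet2-/- libraries, so that all 4 groups overlapped. Its log2 fold change after IR was 0.05 ± 0.19 (SE; 95% interval −0.39 to 0.50, adjusted p = 0.898, edgeR) in WT and −0.25 ± 0.21 (−0.74 to 0.24, adjusted p = 0.372) in Tet2-/- kidneys. These intervals leave out a change of 2-fold in either direction. Scnn1b (NR_073548, chr7:129008552-129062242, plus strand), the beta subunit, was at 14.5, 11.7 and 14.3 FPKM in WT baseline and 23.0, 16.3 and 14.9 in WT IR libraries. All 3 IR libraries lay above the baseline libraries, with a log2 fold change of 0.35 ± 0.18 (−0.07 to 0.77) and an adjusted p of 0.293 by edgeR's test. In libraries labelled Tet2-/- it was at 14.8, 12.7 and 16.7 at baseline and 14.7, 22.9 and 8.94 after IR. The IR libraries lay on both sides of the baseline ones (−0.21 ± 0.28, −0.85 to 0.43, adjusted p = 0.558).

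Scnn1g (NM_011326, chr7:128878021-128911991, plus strand), the gamma subunit, which is cut by proteases when the channel is activated, showed the widest contrast of the 3 between the genotypes after IR. It was at 10.5, 7.04 and 9.71 FPKM in WT baseline and 19.0, 10.7 and 10.8 in WT IR libraries, where replicate 1 was the highest of all 12 libraries. The log2 fold change was 0.50 ± 0.26 (−0.11 to 1.10, adjusted p = 0.306, edgeR). In libraries labelled Tet2-/- it was at 9.85, 8.85 and 9.13 at baseline and 9.16, 11.3 and 4.56 after IR (−0.43 ± 0.26, −1.04 to 0.17, adjusted p = 0.214). Between the genotypes after IR the log2 fold change was −0.81 ± 0.33 (−1.59 to −0.02) with an adjusted p of 0.165 by edgeR's test. The interaction was −0.89 ± 0.40 with an adjusted p of 0.179 by the same edgeR fit, and both were short of a call. Of the 10 genes, 4 had FPKM that did not overlap between WT baseline and WT IR, namely Scnn1b and Scnn1g higher and Sgk1 and Tsc22d3 lower, beside 29.3% of all genes tested. After TMM scaling Scnn1g overlapped in that comparison and Nr3c1 did not. Tet2-/- IR replicate 3 was the lowest library for all 3 subunits and had the highest sum of adipocyte markers. It also had the lowest sums of thick ascending limb (397 FPKM), distal convoluted and connecting tubule (46.4) and intercalated cell markers (56.5). Its sum of principal cell markers (325) was the lowest as well, close to the 328 of Tet2-/- baseline replicate 3. Without Tet2-/- IR replicate 3 the log2 fold change after IR in Tet2-/- kidneys was −0.065 for Scnn1a in place of −0.25. That of Scnn1b was then 0.02 in place of −0.21, and that of Scnn1g −0.175 in place of −0.43. Without Tet2-/- IR replicate 1 that of Scnn1a was −0.49 (adjusted p = 0.0693, edgeR). Without WT IR replicate 1 that of Scnn1g was 0.20 after IR in WT and −0.51 between the genotypes after IR, in place of 0.50 and −0.81. With the adipocyte marker level as a covariate, the log2 fold change after IR in Tet2-/- kidneys was −0.006 for Scnn1a in place of −0.25. It was 0.22 for Scnn1b and 0.001 for Scnn1g in place of −0.21 and −0.43. The interaction for Scnn1b was then 0.002 in place of −0.52. None of these was called. The part of the principal cell and other nephron markers was not tested.

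Ratios within a library do not depend on its scaling. Scnn1b stood at 0.489 ± 0.0499 (SD, n = 3) of Scnn1a in WT baseline and at 0.589 ± 0.0477 in WT IR libraries, and Scnn1g at 0.326 ± 0.0211 and 0.435 ± 0.0866 of Scnn1a. Both ratios were higher in each WT IR library than in any WT baseline library. Each had a two-sided exact permutation p of 0.1, the smallest that 3 against 3 libraries can give, and 0.4 after Benjamini-Hochberg adjustment over 12 tests. In libraries labelled Tet2-/- the ratios overlapped, at 0.515 ± 0.124 at baseline and 0.528 ± 0.191 after IR for Scnn1b (exact permutation p = 1.0) and at 0.321 ± 0.0335 and 0.28 ± 0.076 for Scnn1g (exact permutation p = 0.4). Over the 12 libraries Scnn1b and Scnn1g had the highest Pearson correlation among pairs of the 10 genes (0.895 on log2 TMM-scaled counts), Scnn1a correlated with Scnn1g at 0.732 and with Scnn1b at 0.575, and Hsd11b2 correlated with Scnn1g at 0.663 and with Scnn1b at 0.64. These are descriptions over libraries of 4 groups, and any difference in cell composition is shared by all genes of a library. Of 12197 other genes, the 5 with the profile most like the mean of the 3 subunits were Celsr1 (0.902), Rab27a (0.9), Sostdc1 (0.878), Zscan22 (0.853) and Gdf11 (0.843). Sostdc1, a secreted inhibitor of BMP and Wnt signalling, was at 30.4, 20.4 and 36.2 FPKM in WT baseline, 59.7, 42.3 and 40.5 in WT IR, 30.3, 33.1 and 22.1 in Tet2-/- baseline and 21.3, 27.2 and 5.68 in Tet2-/- IR libraries.

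**Figure D3:**
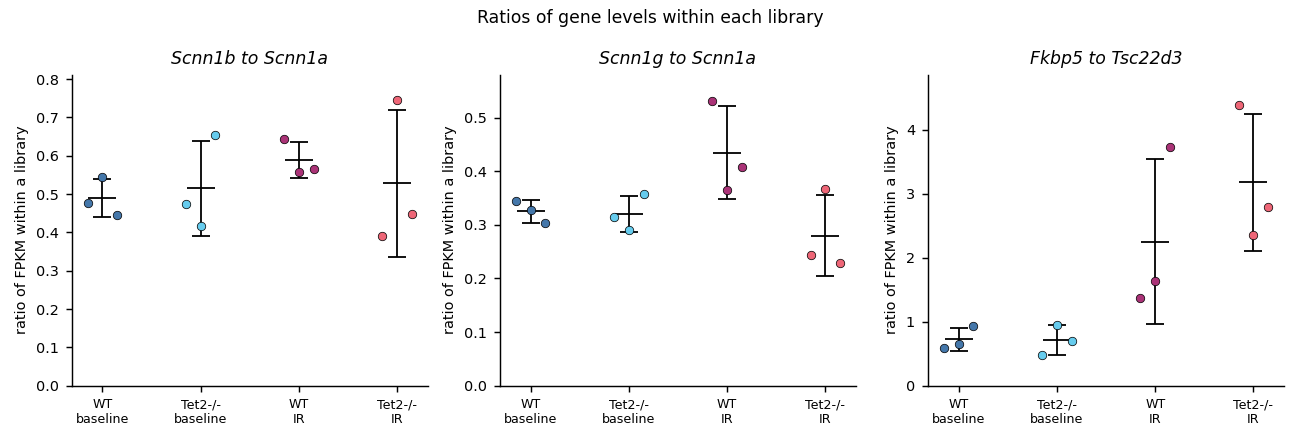
Ratio of FPKM within each library (vertical axes, each from 0) for Scnn1b to Scnn1a, Scnn1g to Scnn1a and Fkbp5 to Tsc22d3 in the 4 groups, with points for libraries and bars for the mean ± SD. The ratio of Fkbp5 to Tsc22d3 was under 1 in all 6 baseline libraries and from 1.37 to 4.39 in the 6 IR libraries.

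Both receptor genes were lower at baseline in libraries labelled Tet2-/- than in WT libraries, without a call. Nr3c2 (NM_001083906, chr8:79426407-79767538, plus strand) was at 1.23, 0.963 and 1.86 FPKM in WT baseline and 0.709, 0.492 and 0.592 in Tet2-/- baseline libraries, and these did not overlap (−1.09 ± 0.29, −1.76 to −0.42, adjusted p = 0.257, edgeR). With DESeq2, which called 320 genes in this comparison where edgeR called 2, Nr3c2 was called (−1.09, adjusted p = 0.0179). After IR it was at 1.53, 1.48 and 1.16 in WT libraries and 1.11, 1.87 and 0.567 in Tet2-/- ones, which overlapped. Its change with IR was −0.03 ± 0.28 (adjusted p = 0.959, edgeR) in WT and 0.70 ± 0.39 (adjusted p = 0.18) in Tet2-/- kidneys. With each library left out in turn, the value in Tet2-/- kidneys ran from 0.30 to 0.99. It was 1.195 with the adipocyte covariate (adjusted p = 0.0225, edgeR). Nr3c1 (NM_008173, chr18:39570199-39646899, minus strand) was at 7.79, 7.71 and 10.7 FPKM in WT baseline and 5.23, 6.07 and 6.31 in Tet2-/- baseline libraries, again without overlap (−0.48 ± 0.17, −0.87 to −0.10, adjusted p = 0.343, edgeR). After IR it was at 6.96, 8.02 and 6.88 in WT libraries and 5.48, 7.56 and 5.27 in Tet2-/- libraries, with overlap (−0.36 ± 0.14, −0.68 to −0.04, adjusted p = 0.135). With TMM scaling Nr3c1 and Scnn1g did not overlap between the genotypes after IR, both lower in libraries labelled Tet2-/-. With the adipocyte covariate the difference at baseline was −0.68 for Nr3c2 and −0.24 for Nr3c1, in place of −1.09 and −0.48. Without WT baseline replicate 3 that of Nr3c1 was −0.30. Of the 10 genes, 3 did not overlap between the genotypes at baseline, Nr3c2, Nr3c1 and Sgk1, all lower in libraries labelled Tet2-/-, beside 19.5% of all genes tested. Nr3c1 exceeded Nr3c2 6.71 ± 1.16 times in WT baseline, 10.1 ± 2.52 times in Tet2-/- baseline, 5.3 ± 0.711 times in WT IR and 6.09 ± 2.8 times in Tet2-/- IR libraries (SD, n = 3), with overlap in all 4 comparisons (exact permutation p of 0.2 or more).

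Hsd11b2 fell after IR in libraries labelled Tet2-/-. This enzyme gene (NM_008289, chr8:108042646-108047888, plus strand) was at 69.9, 52.7 and 73.3 FPKM in Tet2-/- baseline libraries and 31.3, 56.7 and 27.8 after IR, where replicate 2 lay above the lowest baseline library. With TMM scaling the groups did not overlap, and the log2 fold change was −1.04 ± 0.25 (−1.63 to −0.45, adjusted p = 0.0136, edgeR). The call lies near the fold limit. It was lost with library sizes alone (−0.79, adjusted p = 0.0496), with the adipocyte marker level as a covariate (−0.76, adjusted p = 0.0597), and without Tet2-/- baseline replicate 3 (−0.93), Tet2-/- IR replicate 1 (−0.94) or Tet2-/- IR replicate 3 (−0.90), where the adjusted p of edgeR was 0.0482, 0.0411 and 0.0254. In WT kidneys Hsd11b2 was at 60.5, 51.3 and 53.4 FPKM at baseline and 72.9, 41.4 and 51.3 after IR, which spread to both sides (−0.06 ± 0.21, −0.56 to 0.43, adjusted p = 0.892). The IR effects in the 2 genotypes differed by −0.94 ± 0.35 on the log2 scale, short of a call (adjusted p = 0.107, edgeR). Principal cell markers, the genes of the cells that hold most of the kidney's Hsd11b2, had 0 of 8 genes called higher and 1 of 8 called lower after IR in Tet2-/- kidneys, beside 24.3% of all genes called, with a median log2 fold change of −0.59. Whether the level of Hsd11b2 moved with the share of these cells was not tested.

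The regulators of the channel differed from each other. Nedd4l (NM_001114386, chr18:65047410-65377480, plus strand) ranged from 8.44 to 12.6 FPKM over all 12 libraries and had overlap in all 4 comparisons. Its log2 fold changes were −0.21 ± 0.15 after IR in WT and −0.36 ± 0.17 in Tet2-/- kidneys, 0.22 ± 0.16 between genotypes at baseline and 0.07 ± 0.16 after IR (adjusted p from 0.132 to 0.812, edgeR). Sgk1, the gene of the 10 with the highest mean level in WT baseline kidneys, was at 70.6, 121 and 49.1 FPKM in WT baseline and 33.9, 40.6 and 20.2 in WT IR libraries, so that each IR library lay below all baseline libraries. The log2 fold change was −1.42 ± 0.35 (−2.24 to −0.59) with an adjusted p of 0.0801 by edgeR's test, which misses the limit. With the replicate number as a block it was −1.365 with an adjusted p of 0.0063. Tsc22d3 and Sgk1 were then the 2 of 10 genes called, and the block raised the count over all genes from 376 to 987. DESeq2 (adjusted p = 0.00164) and a single edgeR fit of all 12 libraries (0.0274) also called Sgk1. In libraries labelled Tet2-/- Sgk1 was at 48.1, 43.0 and 41.1 FPKM at baseline, below each WT baseline library (−0.77 ± 0.30, −1.46 to −0.08, adjusted p = 0.388, edgeR). It was at 41.4, 30.8 and 49.4 there after IR, which overlapped with baseline (−0.36 ± 0.22, −0.86 to 0.14, adjusted p = 0.211). That value was −0.76 with the adipocyte covariate (adjusted p = 0.0141, edgeR), −0.58 without Tet2-/- IR replicate 3 (adjusted p = 0.0468) and −0.14 without Tet2-/- IR replicate 2 (adjusted p = 0.493), all within the fold limit. The baseline difference was −0.35 without WT baseline replicate 2. The difference between the IR effects was 1.10 ± 0.45 with an adjusted p of 0.14 by edgeR's test, and 1.003 with an adjusted p of 0.0459 with the replicate block. That difference was 0.63 without WT baseline replicate 2 (adjusted p = 0.329, edgeR) and 0.68 with the adipocyte covariate (adjusted p = 0.504).

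Tsc22d3 fell after IR in libraries labelled Tet2-/-. It was at 38.3, 39.5 and 42.5 FPKM in Tet2-/- baseline libraries and 11.6, 19.0 and 22.6 in Tet2-/- IR libraries, and it fell by 1.43 on the log2 scale (SE 0.25, 95% interval −2.004 to −0.85, adjusted p = 0.00332, edgeR). It was called under all 18 alternatives tried for this comparison, with log2 fold changes from −1.73 to −1.18 and adjusted p from 9.69e-07 to 0.0147 over the edgeR, DESeq2 and limma fits. In WT kidneys it was at 96.0, 50.5 and 30.9 FPKM at baseline, and at 23.7, 23.1 and 10.1 after IR, below each baseline library. The log2 fold change was −1.72 ± 0.45 (−2.79 to −0.65) with an adjusted p of 0.0901 by edgeR's test, and −1.65 with an adjusted p of 0.00689 with the replicate block, which makes it a call. DESeq2 (0.00178) and the fit of all 12 libraries with edgeR (adjusted p = 0.0311) called it as well. The IR effect did not differ detectably between genotypes (interaction 0.33, adjusted p = 0.741, edgeR). The levels of the genotypes overlapped both at baseline (−0.47 ± 0.36, adjusted p = 0.591) and after IR (−0.16 ± 0.35, adjusted p = 0.79). Over the 12 libraries Sgk1 and Tsc22d3 correlated at 0.763. In the WT baseline group Tsc22d3 and Fkbp5 were both highest in replicate 1, and Sgk1 was highest in replicate 2.

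Fkbp5 took another course from Tsc22d3. Fkbp5 (NM_010220, chr17:28535698-28623094, minus strand) was at 56.9, 33.3 and 28.7 FPKM in WT baseline and 32.5, 37.9 and 37.6 in WT IR libraries, within the baseline range (−0.19 ± 0.26, adjusted p = 0.699, edgeR). In libraries labelled Tet2-/- it was at 18.3, 37.4 and 29.7 at baseline and 50.7, 44.7 and 63.2 after IR, each IR library above all baseline libraries (0.65 ± 0.29, −0.03 to 1.32, adjusted p = 0.108). After IR it was higher in each Tet2-/- than in any WT library, with a log2 fold change of 0.46 ± 0.21 (−0.03 to 0.95, adjusted p = 0.194), and neither value was called. With TMM scaling Fkbp5 overlapped in both comparisons. Its change after IR in Tet2-/- kidneys was 0.40 without Tet2-/- baseline replicate 1 and 0.39 with the adipocyte covariate. Between the genotypes after IR its log2 fold change was 0.26 without Tet2-/- IR replicate 3 and 0.24 with the covariate. The FPKM of 2 of 10 genes, Fkbp5 higher and Tsc22d3 lower, did not overlap between Tet2-/- baseline and Tet2-/- IR, beside 58.3% of all genes. Between the genotypes after IR 1 of 10, Fkbp5, did not overlap, beside 36.6% of all genes. The ratio of Fkbp5 to Tsc22d3 within a library, chosen after the values were seen and so given without a test, was 0.727 ± 0.178 in WT baseline, 2.25 ± 1.29 in WT IR, 0.708 ± 0.235 in Tet2-/- baseline and 3.18 ± 1.07 in Tet2-/- IR libraries (SD, n = 3). No IR library overlapped with a baseline library. Of 12197 other genes, those with the profile most like that of Fkbp5 were Api5 (0.847), Zbtb16 (0.839), Kctd6 (0.833), B4galt1 (0.821) and Zcchc9 (0.814). Zbtb16, a zinc finger gene that glucocorticoids induce, was at 4.67, 0.598 and 1.53 FPKM in WT baseline, 0.598, 0.627 and 0.938 in WT IR, 0.365, 1.39 and 0.545 in Tet2-/- baseline and 2.57, 2.62 and 3.52 in Tet2-/- IR libraries.

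Sgk1 has 6 transcripts in the table and Tsc22d3 has 3, which start at different places. The other Sgk1 transcripts held from 97.16% to 99.43% of the count of the one used (NM_011361, mm9 chr10:21714472-21719708, plus strand), and the other Tsc22d3 transcripts from 86.97% to 95.74% of that of NM_010286 (chrX:137074068-137077726, minus strand). Overlapping transcripts share reads in such counts, so these values do not separate the start sites. The glucocorticoid and mineralocorticoid receptors bind as pairs to the 15-base element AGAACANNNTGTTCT, made of the 6-base unit AGAACA and its reverse complement. The 250 bases before each transcript start were searched on both strands for the element and for the unit, which the element contains. Of 15 distinct windows for 8 of the genes, 4 held the unit and 1 held the whole element, where 16.1% and 0.00913% of the 32851 windows of RefSeq transcripts in the table did (5284 and 3 windows). The window with the element lies before Sgk1 transcript NM_001161850 (mm9 chr10:21713446-21713695, plus strand), where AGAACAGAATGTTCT stands at −189 to −175 from the start. It is printed with the windows of the transcripts used for Tsc22d3 (mm9 chrX:137077727-137077976, minus strand) and Fkbp5 (mm9 chr17:28623095-28623344, minus strand), which hold neither, because the 3 genes are known targets of the same receptors. Capitals mark each 6-base unit, on either strand, and each sequence runs 5′ to 3′ and ends at the base before the transcript start.
Sgk1 NM_001161850: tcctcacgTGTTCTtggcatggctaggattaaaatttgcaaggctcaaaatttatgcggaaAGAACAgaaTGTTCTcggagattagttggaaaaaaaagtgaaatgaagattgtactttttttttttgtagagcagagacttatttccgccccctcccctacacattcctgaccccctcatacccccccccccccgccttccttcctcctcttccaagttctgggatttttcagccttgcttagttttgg
Tsc22d3 NM_010286: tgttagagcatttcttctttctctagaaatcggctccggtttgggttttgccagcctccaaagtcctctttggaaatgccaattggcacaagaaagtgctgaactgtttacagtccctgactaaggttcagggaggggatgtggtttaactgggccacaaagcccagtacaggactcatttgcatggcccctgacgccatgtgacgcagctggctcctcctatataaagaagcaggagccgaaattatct
Fkbp5 NM_010220: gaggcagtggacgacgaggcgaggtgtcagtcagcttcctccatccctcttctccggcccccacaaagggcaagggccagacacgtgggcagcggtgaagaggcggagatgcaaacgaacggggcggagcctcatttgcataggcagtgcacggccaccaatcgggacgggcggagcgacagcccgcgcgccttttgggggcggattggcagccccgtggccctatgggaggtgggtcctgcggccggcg
The window of the Sgk1 transcript used for the counts (NM_011361) held no unit either. The unit without the whole element also lay before Sgk1 transcripts NM_001161845 and NM_001161849 and before Tsc22d3 transcript NM_001077364. None of these transcripts was used for the counts. A match in these letters is a description of the sequence and does not show that a receptor was bound, and the absence of a match covers this window only.

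Around the 10 genes, 4 lists of other genes of the pathway were followed. Of 27 further ENaC regulators (proteases, ubiquitin enzymes and kinases), 1 rose and 0 fell after IR in WT, and 3 rose and 3 fell in Tet2-/- kidneys, with medians of 0.11 and −0.03. The 6 of 27 are near the 24.3% of all genes called in Tet2-/- kidneys, as 1 of 27 is near the 2.35% in WT. Ywhah, a 14-3-3 protein, rose from 32.0 ± 0.904 to 71.1 ± 17.5 FPKM in WT (log2 fold change 1.10, adjusted p = 0.0365, edgeR). It rose from 33.5 ± 4.5 to 153 ± 21.8 in Tet2-/- kidneys (1.95, adjusted p = 0.000366). Usp2, whose product removes ubiquitin from ENaC, fell in Tet2-/- kidneys from 68.5 ± 7.8 to 11.3 ± 4.24 FPKM (−2.85 ± 0.29, adjusted p = 0.000411), and Prss8, a protease that activates ENaC, fell from 216 ± 5.39 to 119 ± 6.63 (−1.12 ± 0.15, adjusted p = 0.00108). Between the genotypes after IR, Usp2 was lower in libraries labelled Tet2-/- (−1.58, adjusted p = 0.0272) and Ywhah was higher (1.02, adjusted p = 0.0437), the 2 of 27 called there, beside 6.15% of all genes. The interaction was called for 3 of 27 by edgeR's test, near the 9.18% of all genes, namely Usp2 (−1.96, adjusted p = 0.0136), Prss8 (−1.03, adjusted p = 0.00846) and Akt1 (0.74, adjusted p = 0.0393), named after their values were seen. Without Tet2-/- IR replicate 3, edgeR called 0 of 27 between the genotypes after IR and 2 of 27 for the interaction (Prss8 and Usp2), beside 650 and 1741 of all genes. The interaction was called for 6 of 27, 4 above 0 and 2 below, both with DESeq2 and with library sizes alone, beside 2810 and 1829 of all genes. With the adipocyte covariate it called 0 of 27 in both, beside 309 and 94 of all genes. Without WT baseline replicates 2 and 3 it called 0 of 27 for the interaction, beside 10 of all genes. With library sizes alone 8 rose and 1 fell after IR in Tet2-/- kidneys, beside 4257 of all genes in place of 3974, with a median of 0.20. Between genotypes at baseline 0 of 27 were called, and 2 of 27 had an unadjusted p under 0.05.

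Of 15 receptor partners (chaperones, coregulators and enzymes that convert the hormones), 0 were called after IR in WT (0 at an unadjusted p under 0.05) and 2 rose and 1 fell in Tet2-/- kidneys, with medians of −0.13 and −0.34. The 3 of 15 are near the 24.3% of all genes. Hsd11b1, which regenerates active glucocorticoid, fell from 93.3 ± 22.8 to 46.1 ± 7.99 FPKM (−1.26 ± 0.22, adjusted p = 0.00371, edgeR), while H6pd, which supplies that enzyme with its cofactor, rose from 32.8 ± 4.95 to 126 ± 30.8 (1.70 ± 0.26, adjusted p = 0.00207). Of 10 further transport genes of the distal nephron, 0 were called after IR in WT (2 at an unadjusted p under 0.05). In Tet2-/- kidneys all 10 log2 fold changes were below 0, with a median of −0.50. With library sizes alone 8 of 10 were below 0 and the median was −0.26, and with the adipocyte covariate 8 of 10 and −0.28. Of the 10, 1 was called, beside 24.3% of all genes, the potassium channel gene Kcnma1 (−1.80, adjusted p = 0.00572, edgeR), named after its value was seen because its FPKM overlapped between the groups. It was called with 1 further gene in 4 alternatives, Fxyd2 without Tet2-/- IR replicate 3 or with the adipocyte covariate, and Kcnj1 with DESeq2 or the replicate block, where 4062 to 4278 of all genes were called in place of 3974. Between the genotypes 0 of 15 receptor partners and 0 of 10 transport genes were called by edgeR at baseline (2 and 0 at an unadjusted p under 0.05) and after IR (2 and 2). DESeq2 called Nrip1, a receptor corepressor, at baseline, where it called 320 of all genes, and none of either list after IR. The interaction was called by edgeR for 1 of 15 receptor partners, the chaperone Fkbp4 (−0.76, adjusted p = 0.0497), named after its value was seen, beside 9.18% of all genes, and for 0 of 10 transport genes (1 at an unadjusted p under 0.05). DESeq2 called 3 of 15 (Fkbp4, Nrip1 and Ppp5c) and 1 of 10 (Atp1b1), where it called 2810 of all genes and edgeR 1536. The call of Fkbp4 was lost with library sizes alone and without Tet2-/- IR replicate 3, where Nrip1 was called, and with the adipocyte covariate and without WT baseline replicates 2 and 3, where 0 of 15 were called. The replicate block called Fkbp4 and H6pd, with 2101 of all genes. Markers of the nephron parts that hold the transport genes also held genes called lower after IR in Tet2-/- kidneys, beside 24.3% of all genes called. Of 6 distal convoluted and connecting tubule markers 1 rose and 2 fell (median −0.81), and of 5 thick ascending limb markers 0 rose and 3 fell (median −1.32). Their part in the transport genes was not tested.

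Genes known to be induced by glucocorticoids went in both directions. Of 24 tested, 19 had a log2 fold change below 0 after IR in WT, with a median of −0.90 beside −0.03 over all genes, and 0 rose and 2 fell, where 2.35% of all genes were called. Those were Dusp1, a phosphatase that turns off MAP kinases, from 98.5 ± 41.0 to 10.1 ± 0.69 FPKM (−3.34 ± 0.33, adjusted p = 0.0087, edgeR), and the repressor Bcl6, from 22.6 ± 4.02 to 5.05 ± 2.03 (−2.23 ± 0.29, adjusted p = 0.0152). With the replicate block 7 fell, Dusp1 and Bcl6 with Arrdc2, Ddit4, Glul, Per1 and Sesn1, and 0 rose, where 987 of all genes were called in place of 376. With DESeq2 2 rose, Mt1 and Mt2, and 6 fell, where 982 of all genes were called. Without WT baseline replicates 2 and 3, Dusp1 was called of the 24, and it was the 1 gene called of all genes. With the adipocyte marker level as a covariate the median was −1.09, and edgeR called 0 of 24 and also 0 of all genes. In Tet2-/- kidneys 7 rose and 8 fell, beside 24.3% of all genes called, with a median of −0.09. With library sizes alone 7 rose and 6 fell and the median was 0.13, and without Tet2-/- IR replicate 3 the numbers were 6 and 8 and the median −0.17, where 4257 and 4278 of all genes were called in place of 3974. Those that rose included the metallothioneins Mt2, from 45.0 ± 23.5 to 968 ± 263 FPKM (4.17 ± 0.39, adjusted p = 0.000313), and Mt1, from 155 ± 54.0 to 1290 ± 179 (log2 fold change 2.80 ± 0.26, adjusted p = 0.000285), and the cell cycle inhibitor Cdkn1a (3.75 ± 0.35, adjusted p = 0.000304). These 3 genes are also induced by stress signals other than glucocorticoids. Between the genotypes after IR 5 of 24 were higher and 1 lower in libraries labelled Tet2-/-, beside 6.15% of all genes called, with a median of 0.69 beside 0.04 over all genes. With DESeq2 10 were higher and 2 lower, with library sizes alone 7 and 1, and with the adipocyte covariate 1 (Mt1) and 1 (Klf15), where 1655, 920 and 309 of all genes were called in place of 996. The interaction was called for 4 of 24, beside 9.18% of all genes, all above 0, Mt1, Mt2, Pdk4 and Zbtb16 (adjusted p from 0.0311 to 0.0462, edgeR), named after their values were seen. The list's median interaction was 0.90 beside 0.10 over all genes. Leaving out Tet2-/- IR replicate 3 gave 3 higher and 1 lower between the genotypes after IR, and the interaction was called for 3 above 0 and 1 below 0, where 650 and 1741 of all genes were called. With the adipocyte covariate edgeR called 0 of 24 for the interaction, and 0 without WT baseline replicates 2 and 3, with medians of 1.07 and 1.32, where 94 and 10 of all genes were called. The replicate block called 7 above 0 and 1 below 0, DESeq2 8 and 2, and library sizes alone 6 and 0, where 2101, 2810 and 1829 of all genes were called in place of 1536. At baseline 0 of 24 were called between genotypes, beside 0.0124% of all genes, with 1 at an unadjusted p under 0.05. DESeq2 called Bcl6 there, lower in libraries labelled Tet2-/-, where it called 320 of all genes. In edgeR's fit 15 of 24 were below 0 (median −0.11), and with the adipocyte covariate 22 of 24 (median −0.43). Without WT baseline replicates 2 and 3 the median was −0.41. The libraries labelled Tet2-/- after IR also differed in proximal tubule markers (0 rose and 4 of 7 fell with IR) and leukocyte markers (6 of 11 rose and 1 fell). Endothelial markers had medians of −0.98 after IR in WT, 0.43 after IR in Tet2-/- kidneys, 0.95 between the genotypes after IR and 1.51 for the interaction. Neither edgeR nor DESeq2 called any of the 6 genes in these comparisons, and 1, 1, 0 and 1 of them had an unadjusted p under 0.05. Between the genotypes at baseline the median was −0.37, and 2 of 6 had an unadjusted p under 0.05. There DESeq2 called Emcn, lower in libraries labelled Tet2-/- and named after its value was seen. The summed level of the 6 endothelial markers was 38.3 to 97.6 FPKM in WT baseline and 27.6 to 42.7 in Tet2-/- baseline libraries. After IR it was 6.0 to 45.5 in WT libraries, lowest in replicate 3, and 33.0 to 68.2 in Tet2-/- libraries. WT IR replicate 3 was also the lowest WT IR library for Sgk1 and Tsc22d3. The part of proximal tubule cells, leukocytes and endothelial cells in the lists was not tested.

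**Figure D4:**
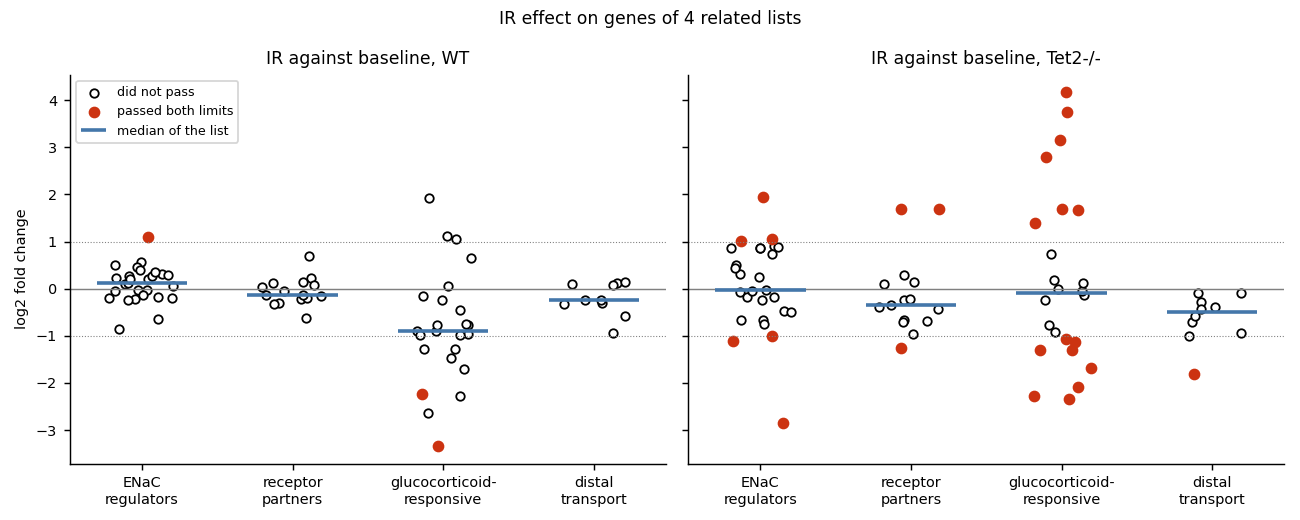
Log2 fold change after IR (vertical axis) of the genes of 4 lists in WT and in Tet2-/- kidneys, with a point for each gene, filled where it passed both limits, and a line at the list's median. Glucocorticoid-responsive genes had a median of −0.90 in WT, where 2 fell, and −0.09 in Tet2-/- kidneys, where 7 rose and 8 fell.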

How the data were processed

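Kidney RNA-seq libraries of 12 mice in 4 groups of 3 were analysed. The authors aligned reads to mm9 with STAR and quantified RefSeq transcripts with HOMER, and deposited read counts per transcript without normalization as well as FPKM, which divides the count by transcript length and by a total of the library. Since the deposited counts rise in steps of 0.5 (38.7% of values are not whole), they were handled like estimated counts and rounded to whole numbers. The 34600 transcripts were reduced to 1 per symbol by highest total count. Fits used edgeR 4.0.16 in R 4.3.3 with TMM scaling, edgeR's own low-count filter and the quasi-likelihood test, p-values adjusted by Benjamini-Hochberg across the whole table, each on the 6 libraries compared, and on all 12 for the interaction. SE is the absolute log2 fold change over the square root of F. FPKM alternatives used limma 3.58.1 on log2(FPKM + 1) and log2(FPKM + 0.1), count alternatives DESeq2 1.42.0. Figures were drawn with matplotlib 3.10.9.

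Same-numbered WT libraries lay off their group means in the same direction (baseline to IR correlations 0.377, 0.349 and 0.369), which pairs them from the data only, since the mice differ. In Tet2-/- libraries the correlations were 0.096, 0.333 and 0.265. The numbers were not taken as pairs in the fits reported. The replicate block, an alternative in each comparison, did take them as pairs, also in Tet2-/- libraries. The genes, lists and naming rule were chosen with earlier results of these data known. Besides the 10 genes and Tet2, the text names up to 4 called genes of each list and comparison, by size of the fold change, if a group mean reached 1 FPKM and no libraries overlapped, and the 5 genes with the profile most like the mean of the ENaC subunits or Fkbp5. Other names are given as chosen after their values were seen. Sequences come from the mm9 genome, and 10 of the 15 windows were identical in RefSeq's promoter table for GRCm38.p6. 2 genes were left out of the sequence search. The tests were tried on simulated data with known changes.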

Additional observations from a re-analysis of the deposited data

Results flagged for a closer look

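Tet2, the gene that the labels name as deleted, had an IR effect that differed between the genotypes. The interaction was −2.001 ± 0.48 on the log2 scale (SE, adjusted p = 0.0285, edgeR's quasi-likelihood test over 12 libraries). Its FPKM was higher in each baseline library labelled Tet2-/- than in any WT baseline library, and lower in each IR library labelled Tet2-/- than in any WT IR library, and with IR it fell by 2.52 on the log2 scale in libraries labelled Tet2-/- (adjusted p = 0.000519, edgeR). Over 22 alternatives the interaction ran from −2.22 to −1.43, with adjusted p from 0.000744 to 0.218, and it missed the limit in 8 of them. The part of the transcript that the deletion removes is not given in the sources used here, so reads of the remaining exons cannot be told apart from reads of an intact transcript. An exchange of the genotype labels at baseline was not tested, and it would turn the sign of each genotype difference at baseline and change the IR effects and the interactions. With 3 libraries in each group, single libraries that stand apart were not tested for.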

How the results depend on the processing

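Of 1016 log2 fold changes of the 10 genes and Tet2 under alternatives, 944 kept direction and side of the limit, 15 lost a call, 14 gained a call and 43 changed sign. Where the cause is not given by the alternative's construction, the cause was not tested. After IR in WT, 2 of the 10 genes (Sgk1 and Tsc22d3) were called with DESeq2, with all 12 libraries in 1 fit, with the replicate block and at an unadjusted p, in place of 0. After IR in Tet2-/-, 1 (Tsc22d3) was called with library sizes alone and with limma on log2(FPKM + 1) or log2(FPKM + 0.1), and 1 to 2 without a single library, in place of 2. Between genotypes at baseline, 1 (Nr3c2) was called with DESeq2 or at an unadjusted p. For the interaction, 1 was called with DESeq2 (Hsd11b2) or the replicate block (Sgk1), 3 at an unadjusted p (Hsd11b2, Scnn1g and Sgk1) and 0 to 1 without a single library (Hsd11b2 without WT IR replicate 2 or Tet2-/- IR replicate 2). With the adipocyte marker level as a covariate, Nr3c2 was called after IR in Tet2-/- (1.195, adjusted p = 0.0225, edgeR). The replicate block changed no other call of the 10 genes. The alternatives for the pathway lists were chosen after seeing the data.

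All changes of sign were in log2 fold changes that were not called. After IR in WT, Nr3c2 was 0.035 with library sizes alone, 0.039 and 0.077 with limma at the pseudocounts 1 and 0.1, 0.026 with the replicate block, 0.242 with the adipocyte covariate and 0.105 without WT baseline replicates 2 and 3 together, an alternative chosen after seeing the data, under which Scnn1a was −0.072. After IR in Tet2-/-, Scnn1b was 0.043 with library sizes alone and 0.224 with the adipocyte covariate, Scnn1g was 0.001 with that covariate, and Nr3c1 was 0.026 with library sizes alone and 0.037 and 0.041 with limma. Between genotypes at baseline, Scnn1g was −0.08 and Nedd4l −0.047 without those WT baseline replicates, and Nedd4l was −0.07 with the adipocyte covariate. After IR between genotypes, Scnn1a was 0.034 and Sgk1 −0.006 with that covariate. The interaction was 0.002 for Scnn1b with the covariate and −0.06 for Nr3c1 without WT baseline replicates 2 and 3, and for Nedd4l it was 0.024 with library sizes alone, 0.018 with either pseudocount, 0.11 with the covariate and 0.11 without those replicates.

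With each library left out in turn, the values that changed sign ranged as follows. After IR in WT, Scnn1a ranged from −0.086 to 0.175, Nr3c2 from −0.199 to 0.288, Hsd11b2 from −0.274 to 0.159 and Fkbp5 from −0.371 to 0.16, and after IR in Tet2-/-, Scnn1b from −0.519 to 0.023. Between genotypes at baseline, Scnn1a ranged from −0.015 to 0.261, Scnn1g from −0.034 to 0.23 and Tsc22d3 from −0.77 to 0.064, and after IR, Scnn1a from −0.377 to 0.029, Nedd4l from −0.097 to 0.167 and Tsc22d3 from −0.453 to 0.071. The interaction ranged from −0.038 to 0.234 for Nr3c1 and from −0.21 to 0.633 for Tsc22d3.

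Apart from the setting without WT baseline replicates 2 and 3, the number of all genes called after IR in WT ran from 0 to 987. It was 376 in the fit reported. In Tet2-/- it ran from 2256 to 4278 (3974), and with every deposited transcript as its own row 6032 transcripts were called. Between genotypes the number ran from 1 to 320 at baseline (2) and from 294 to 1655 after IR (996). For the interaction it ran from 94 to 2810 (1536). The 95% intervals given for the 10 genes are not adjusted for the number of genes tested. Those of Sgk1 and Tsc22d3 after IR in WT leave out 0 without a call. So do those of Nr3c2, Nr3c1 and Sgk1 between genotypes at baseline and of Scnn1g and Nr3c1 between genotypes after IR. The same holds for the interaction of Scnn1g, Hsd11b2 and Sgk1.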
